A study of Mus musculus with 10 samples.

Results

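The combined action of BDNF and of extra H2BE was examined in mouse cortical neurons by setting 2 libraries from neurons given both (H2BE+BDNF replicates 2 and 3) against 2 libraries from neurons given neither (Control replicates 1 and 2), 4 of the 10 libraries in the series. The neurons were primary cultures from the cortex of wild-type C57BL/6J embryos at stage E16.5, and all had received AraC at 0.5 µM, an agent that removes dividing cells. Control neurons were infected with a control lentivirus and left unstimulated. H2BE+BDNF neurons were infected with a lentivirus that expresses H2BE from a constitutively active promoter, not named in the labels, and were then stimulated with BDNF, at a dose the labels do not give. The series also holds each treatment alone: BDNF (control lentivirus with BDNF, replicates 1 and 2 used here) and H2BE (H2BE lentivirus without BDNF, replicates 2 and 3). RNA was taken 24 h after the stimulation and polyA RNA was sequenced. The 2 by 2 design asks how the combination compares with untreated neurons, and whether any gene reaches a level that neither treatment gives by itself.

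BDNF is a secreted neurotrophin that binds the receptor tyrosine kinase TrkB, the product of Ntrk2, and signals through Ras and ERK, PI3 kinase and phospholipase C. In cortical neurons it is known for switching on immediate-early transcription factors and, later, secreted and synaptic proteins. H2BE is a variant of histone H2B, encoded in the mouse by H2bc21 and made outside S phase, that takes the place of ordinary H2B in nucleosomes of postmitotic neurons. Genes could therefore in principle move with either treatment, with both in the same direction, or with one against the other.

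Several features of the libraries bear on every value. The third replicates of Control and BDNF were left out because they exceeded replicate 1 of their group at 0 of 48526 genes, with 73.7% and 61.9% of its counts. What remains of replicate 1 after subtracting replicate 3 differed from replicate 3 with a chi-square of 4.1 (Control) and 3.57 (BDNF) per degree of freedom, where a random split of 1 library gives about 1. Whether replicate 1 pools more than 1 library cannot be told from these counts, and it is counted once in n = 2. The 8 libraries used hold 5058074 to 14142545 counts. Over the 10788 genes with at least 20 counts, the replicate differences of the 4 groups, added together, had a variance of 0.46 times that of counting alone, against 1.44 to 2.11 for the 7 other ways of giving the 4 differences signs. Counts of independent libraries would give about 1 or more in all of them. The libraries of different groups are thus not independent of each other in these counts, and what this does to the tests was not tested. The labels do not say that replicates came from separate cultures, so p-values measure the spread between these libraries only.

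The cultures expressed the defining genes of their labelled cell type. All 13 markers of excitatory neurons and all 13 markers of interneurons were detected in each of the 8 libraries. Markers of other cell types were also detected. Over the 8 libraries together the astrocyte genes Slc1a2 and Slc1a3 had 26066 and 2445 counts, the oligodendrocyte genes Mbp and Cnp 2866 and 807, the microglial gene Cd68 856, the fibroblast gene Fn1 1613 and the mural gene Rgs5 1594. The lowest of each of 4 lists were Gjb6 of astrocytes with 0 counts, Mag of oligodendrocytes and Tmem119 of microglia with 1 each, and the endothelial and mural genes Cldn5 and Kcnj8 with 3 each. H2bc21, the gene that the virus carries, stood at 5.19 and 5.24 CPM (counts scaled to library depth by TMM) in Control, 3.69 and 4.07 in BDNF, 42.9 and 35.7 in H2BE, and 32.1 and 35.2 in H2BE+BDNF. All 4 libraries labelled H2BE lay above all 4 without it. The log2 fold change was 2.68 ± 0.15 (SE, n = 2 against 2) in H2BE+BDNF against Control, with an adjusted p of 5.52e-09, and -0.24 against H2BE, with an adjusted p of 0.168 (edgeR). H2bc21 lies at chr3:96221119-96223738 of mm10. Counts from the virus and from the chromosome cannot be told apart, and near-identical H2B genes could share reads with it.

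Neurons given both treatments differed widely from untreated neurons. Against Control, 1840 of the 13452 genes tested were higher (13.7%) and 1694 were lower (12.6%) at a Benjamini-Hochberg adjusted p of 0.05 in edgeR's quasi-likelihood test. That is 3534 genes (26.3%), and 562 of them (4.18%) changed more than 2-fold. The count was 1939 without Control replicate 1 and 2264 with DESeq2. Values for the 2 single treatments from the same fit were 4225 genes (31.4%) for BDNF against Control and 287 (2.13%) for H2BE against Control. These comparisons share the Control libraries.

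Among called genes that average 5 CPM or more and do not overlap between the 2 groups, the largest rise was that of Galr1, a receptor for the neuropeptide galanin. It stood at 0.14 and 0.524 CPM in Control, 0.142 and 0.595 in H2BE, 11.4 and 11.7 in BDNF, and 12.3 and 11.1 in H2BE+BDNF. The 4 libraries with BDNF were thus high, the 4 without it near silent, and the combination overlapped BDNF alone. The log2 fold change against Control was 5.47 ± 0.39, with an adjusted p of 4.67e-08 in edgeR. Against BDNF it was 0.02, with a 95% interval of -0.39 to 0.43.

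Ifi209, an interferon-inducible member of the PYHIN family on chromosome 1, went from 0.0702 and 1.05 CPM in Control to 15.8 and 14.6 with both treatments. Its levels were 14.3 and 11.1 with BDNF, and 0.142 and 0 with H2BE. Both libraries of the combination lay above both of BDNF alone, by 0.26 on the log2 scale with an interval of -0.22 to 0.74, which includes no difference.

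Arc, which drives endocytosis of AMPA receptors, went from 2.25 and 3.32 CPM in Control to 35.9 and 39.5 in H2BE+BDNF, a log2 fold change of 3.86 ± 0.22. With BDNF alone it reached 46.9 and 33.9, a range that holds both libraries of the combination. Egr1, a zinc-finger immediate-early factor, went from 6.88 and 12.1 to 82.7 and 104 CPM, a log2 fold change of 3.44 ± 0.19, and stood at 119 and 96.6 with BDNF alone. The other 6 of the 10 largest rises were Gimap6 (4.75), Akr1b8, an aldo-keto reductase (4.01), the long noncoding RNA Mirt1 (3.49), Grp, the precursor of gastrin-releasing peptide (3.15), Radx (2.94) and Itga6, integrin alpha 6 (2.69), each as a log2 fold change against Control. None of these 10 genes was called against BDNF alone, where 3 of all 13452 genes were (0.0223%). Their log2 fold changes against it ran from -0.21 for Egr1 to 0.35 for Mirt1.

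The deepest fall was that of Pacsin3, an F-BAR protein of endocytosis, from 30 and 25.9 CPM in Control to 5.74 and 6.2 in H2BE+BDNF, a log2 fold change of -2.25 ± 0.17. Its levels were 29.2 and 25.4 with H2BE and 6.09 and 4.48 with BDNF. Pcsk2, a protease that matures prohormones, went from 133 and 131 to 29.9 and 33 CPM, a log2 fold change of -2.07 ± 0.08. Grm2, an inhibitory metabotropic glutamate receptor, went from 49 and 47.4 to 11.6 and 12.4 CPM. In each of these 3 genes both H2BE libraries stayed with Control or above it.

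Further genes among the 10 deepest falls were Slc24a4, a potassium-dependent sodium-calcium exchanger (-1.97), Ypel1 (-1.92), Trip10, an F-BAR adaptor of Cdc42 (-1.89), Rflnb (-1.79), Rps6ka5, the kinase MSK1 that phosphorylates CREB and histone H3 (-1.74), and Arhgef26, a guanine nucleotide exchange factor (-1.74). Ypel1 overlaps Ppil2 on the other strand, and reads of the 2 cannot be separated if counting ignored strand. Trip10 stood at 14.2 and 10.8 CPM in Control, 1.63 and 2.36 in BDNF and 3.71 and 3.17 in H2BE+BDNF. Both libraries of the combination lay above both of BDNF alone, by 0.78 on the log2 scale with an adjusted p of 0.343 (edgeR).

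**Figure D1:**
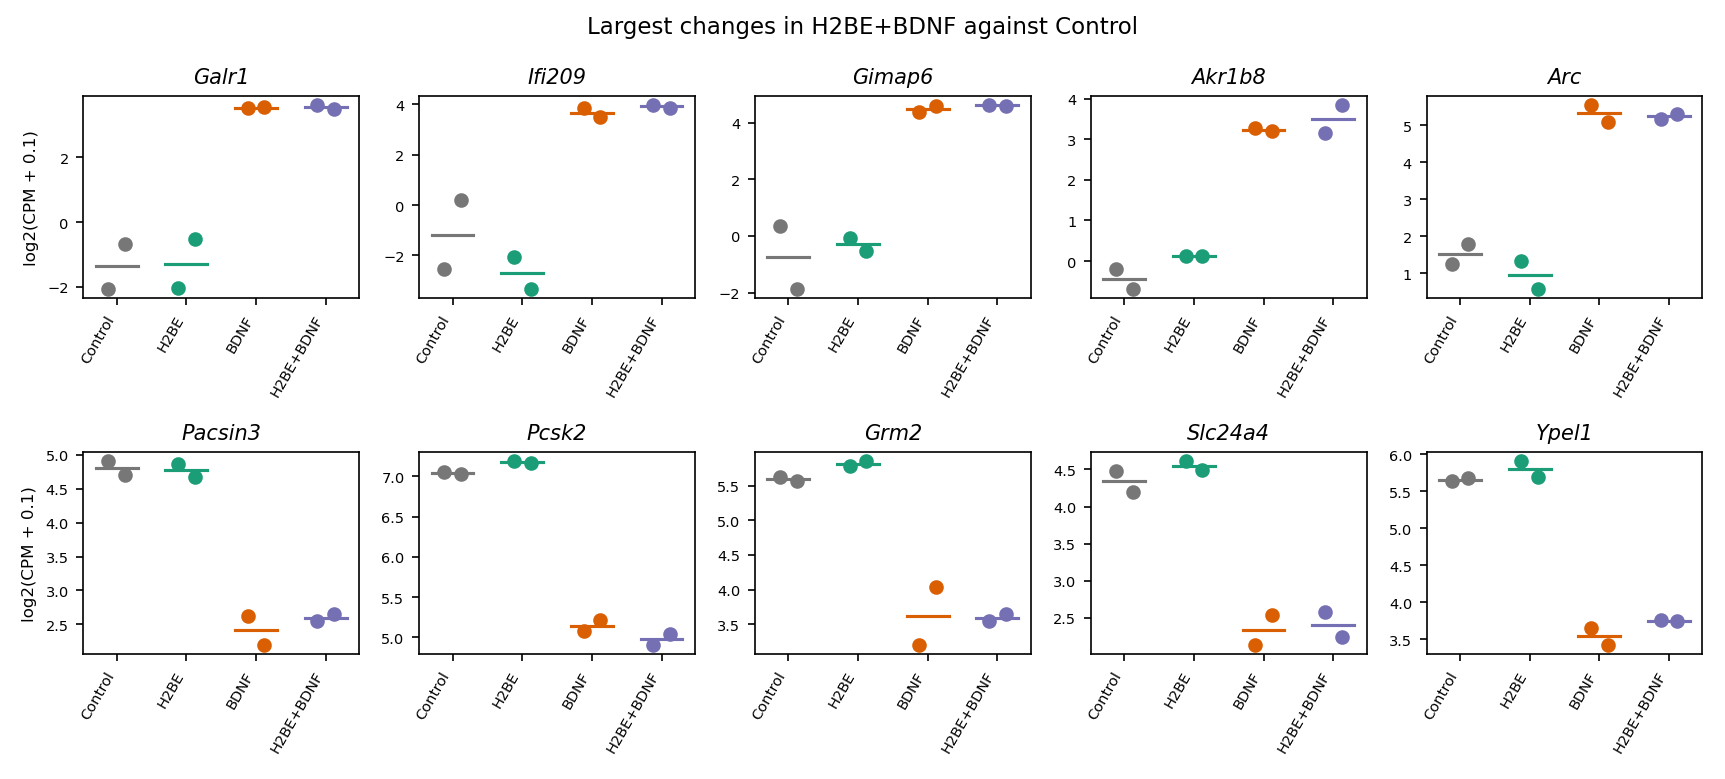
CPM of the 5 genes with the largest rise (top) and the 5 with the deepest fall (bottom) in H2BE+BDNF against Control, on a log2 axis after adding 0.1; each point is 1 library and each line the mean of the 2 log2 values. In all 10 genes the H2BE libraries lie near Control and the H2BE+BDNF libraries near BDNF.

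The 250 bases before the RefSeq start site are shown for 2 of these genes, a rise and a fall, since they hold a motif of a factor that BDNF signalling engages (RefSeq, GRCm38.p6, 5′ to 3′ on the gene's strand, the match in capitals). The Ifi209 window is chr1:173630609-173630858 on the plus strand, and the capitals mark a match to the AP-1 motif TGANTCA, the element of Fos and Jun dimers.
Ifi209: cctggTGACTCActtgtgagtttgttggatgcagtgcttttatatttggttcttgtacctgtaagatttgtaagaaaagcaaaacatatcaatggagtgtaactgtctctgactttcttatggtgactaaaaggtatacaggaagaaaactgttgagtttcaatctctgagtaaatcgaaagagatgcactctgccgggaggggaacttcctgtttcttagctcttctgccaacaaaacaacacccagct
The Trip10 window is chr17:57249201-57249450 on the plus strand, and the capitals mark a match to the CArG box, the element of serum response factor.
Trip10: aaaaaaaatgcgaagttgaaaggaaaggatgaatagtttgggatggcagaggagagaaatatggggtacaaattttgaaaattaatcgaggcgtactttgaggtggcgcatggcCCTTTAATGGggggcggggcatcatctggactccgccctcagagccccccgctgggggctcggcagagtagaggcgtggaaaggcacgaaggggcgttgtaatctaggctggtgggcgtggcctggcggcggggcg
Both strands were searched for AP-1, the CArG box, the CRE TGACGTCA and the EGR motif GCGTGGGCG, which do not overlap in these windows. Of the other rises and falls named above, Mirt1 also held an AP-1 match. The rest with a promoter in the RefSeq table held none of these motifs. Galr1, Arc, Egr1, Grp and Itga6 had no promoter in it. AP-1 was in 22 of 267 promoters of genes more than 2-fold higher (8.24%), in 4 of 134 of genes more than 2-fold lower (2.99%), and in 378 of the 10143 promoters of tested genes in the RefSeq table (3.73%). The CArG box was in 3% of the higher, 1.49% of the lower and 1.15% of all tested. The CRE was in 4.12%, 3.73% and 2.93%, and the EGR motif in 1.87%, 2.24% and 1.07%. These are counts of letters in a window and do not show binding.

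By role in the pathway, the ligand-proximal genes moved in both directions. Ntrk2, the gene of the BDNF receptor, fell from 619 and 641 CPM in Control to 440 and 433 with both treatments, a log2 fold change of -0.53 ± 0.05. It stood at 486 and 535 with BDNF and 684 and 677 with H2BE, so that both libraries of the combination were the lowest of the 8. Shc3, a neuronal Trk adaptor, rose by 0.82 ± 0.08, the sortilin gene Sort1, which sorts neurotrophins, by 0.60 ± 0.06, and Ntrk3, the receptor of neurotrophin-3, by 0.29 ± 0.06 on the log2 scale. Of 9 tested genes of Trk receptors and adaptors, 3 were higher and 1 lower, with a median log2 fold change of 0.10. Over all genes tested 13.7% were higher and 12.6% lower, with a median of -0.0068, and the counts of the lists that follow are to be read beside these shares.

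Most feedback regulators of ERK and most immediate-early genes were higher than Control, against 13.7% of all genes. Of 17 ERK feedback genes, 12 were higher and 0 lower than Control, with a median log2 fold change of 0.76. Spred3, an inhibitor of Ras and Raf signalling, stood at 69.3 and 73.1 CPM in Control and at 192 in both libraries of the combination, and rose by 1.44 ± 0.06. The ETS factor Etv5 rose by 1.38 ± 0.07, Spry2, a Sprouty inhibitor of receptor tyrosine kinase signals, by 1.20 ± 0.07, and the ERK phosphatase Dusp4 by 1.12 ± 0.07. Spred3 overlaps Ggn on the other strand. Of 20 immediate-early genes 15 were higher and 0 lower, with a median of 0.82, among them Fosb, a partner of Jun in AP-1, at 1.89 ± 0.18, and Homer1 at 0.72 ± 0.06. Against BDNF alone the medians of both lists were -0.06 and -0.07, and 0 members of either were called, where 0.0223% of all genes were.

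Secreted factors and neuropeptides were higher for 12 of 21 genes and lower for 2, with a median of 0.52, where 13.7% of all genes were higher and 12.6% lower. Nptx1, a pentraxin that clusters AMPA receptors, went from 38 and 31.8 to 184 and 188 CPM, a log2 fold change of 2.38 ± 0.10, and its relative Nptx2 rose by 1.96 ± 0.14. The granin family members Scg2 and Vgf, cargo of dense-core vesicles, rose by 1.14 ± 0.07 and 1.06 ± 0.04. In the ATF4 and unfolded protein responses 22 of 28 genes were higher and 1 lower, with a median of 0.39. They included the chaperones Hspa5 (0.53) and Hsp90b1 (0.40), the serine synthesis enzyme Psat1 (0.62) and the amino acid transporter Slc7a5 (0.42). In the cholesterol list 11 of 23 genes were higher and 1 lower, among the former the synthesis enzymes Sc5d (0.61) and Lss (0.46).

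Synaptic and channel genes moved in both directions. Of 35 postsynaptic genes 16 were higher and 4 lower, among the former the scaffold genes Homer1 (0.72, also an immediate-early gene), Dlg1 (0.66), Dlg4 (0.60) and Shank1 (0.50). Of 34 presynaptic genes 8 were higher and 11 lower: the vesicle protein Syt4 rose by 1.27, the vesicular glutamate transporter Slc17a6 by 1.19 and the active zone scaffold Pclo by 0.58, while the synapsin gene Syn2 fell by 0.71. Among 35 ion channel genes 10 were higher and 10 lower. Scn8a, a sodium channel of the axon initial segment, rose by 0.72, and the calcium channels Cacna1i and Cacna1a rose by 0.77 and 0.41. GABA genes were lower for 9 of 22 and higher for 4, and are described with the interneuron genes further on.

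Other groups changed by smaller amounts. Cytosolic ribosomal protein genes were higher for 18 of 79 and lower for 0, with a median log2 fold change of 0.12, a share of 22.8% called against 26.3% of all genes. Against H2BE alone 65 of the 79 were higher, with a median of 0.33, where 13.4% of all genes were higher and 12.3% lower. Nuclear genes of the respiratory chain were lower than Control for 20 of 80 and higher for 1, among the former Cox4i1 (-0.35) and Sdhc (-0.30). Against H2BE alone 27 were higher and 1 lower, beside the same 13.4% and 12.3% of all genes. Summed CPM of this list was 12500 to 13000 in Control, 11900 to 12100 in BDNF, 10700 to 10900 in H2BE and 11800 to 12000 in H2BE+BDNF. Trends with transcript length differed between H2BE and H2BE+BDNF, and their part in the counts of both lists was not tested. Mitochondrially encoded genes were higher than Control for 5 of 8, led by ND4 (0.38) and ND2 (0.37). Their summed CPM was 26200 to 27300 in Control, 25800 to 28000 in BDNF, 30700 to 32700 in H2BE and 29600 to 30800 in H2BE+BDNF.

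Some histone genes fell. Of 7 genes of replication-dependent histones 4 were lower and 0 higher, with a median of -0.53, against 12.6% lower of all genes. Of 13 genes of replacement and linker histones 7 were lower, with H2bc21 the 1 that was higher. The linker histone gene H1f2 (-0.55) is in both lists and is counted as lower in each. H2ax, the variant phosphorylated at DNA breaks, fell from 53.5 and 55.8 to 34.6 and 30.8 CPM (-0.73 ± 0.11), and H2az1 fell by 0.53 ± 0.09. Both genes stood within 0.15 log2 of BDNF alone. H2az2 fell by 1.22 ± 0.25 with both treatments, by 1.39 with BDNF and by 1.26 with H2BE, so that either treatment alone gave the level of the combination. Among 16 genes of H3K4 methyltransferases and their partners 3 were higher, Kmt2a (0.74), Kmt2d (0.62) and Kmt2c (0.38). That is 18.8% of the list called, below the 26.3% of all genes.

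Summed levels of other cell types' markers differed between the groups, through few genes each. Summed CPM of the 8 oligodendrocyte markers tested was 54.7 to 59.1 in Control, 86.9 to 97.9 in BDNF, 55.8 to 60.5 in H2BE and 93 to 98 in H2BE+BDNF, and 1 of the 8 was called, Mbp (1.59 ± 0.09), with a median over the list of -0.04. The 5 microglial markers tested summed to 11 to 12.7 CPM in Control and 21.8 to 23.6 in H2BE+BDNF, with 1 called, the lysosomal gene Cd68 (1.90). Their median was -0.89, with C1qa at -0.89, C1qb at -1.33 and C1qc at -1.41, none of them called. Progenitor markers summed to 207 to 208 and 322 to 324 CPM, with Vim, an intermediate filament gene (1.53), and Mki67 (1.69) called of 12. Mki67 had only 81 counts over the 8 libraries together and a 95% interval of 0.61 to 2.77, and its call was lost in some alternatives. Astrocyte markers summed to 390 to 399 CPM in Control and 453 to 460 in H2BE+BDNF, with Slc1a2 called (0.31) and a median of -0.18 over the 8 tested. Their part in the other results was not tested. In bulk RNA, fewer cells of a type and less RNA per cell cannot be told apart.

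No gene met the rule for a level beyond both single treatments. The rule asked for an adjusted p of 0.05 in H2BE+BDNF against Control, against BDNF and against H2BE, with the same sign in all 3, and for both H2BE+BDNF libraries to lie outside the other 6. It found 0 genes above (0%) and 0 below (0%) in edgeR. At an unadjusted p of 0.05 in each of the 3 tests 118 genes were above and 185 below, and DESeq2 found 1, Sst, which was below. Without BDNF replicate 1 the rule found 154 genes, 46 above and 108 below, and without BDNF replicate 2 it found 1. The count thus changes with BDNF replicate 1. With 1 library left, the BDNF group is assumed to vary like the others. Settings other than leaving out 1 library gave 0 to 41 genes, with 41 (4 above and 37 below) when no filter on low counts was used and 5 with all 10 libraries. Taking libraries alone, the combination was above all 6 others for 832 genes (6.18%) and below for 935 (6.95%). The same counts were 1253 and 1254 for Control, 1110 and 954 for BDNF, and 1336 and 1397 for H2BE, so that the combination had the fewest genes at either extreme.

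The comparison with BDNF alone set this limit. The BDNF libraries used were also the least alike within a group, with a chi-square of 4.78 per degree of freedom. That value was 1.76 in Control, 1.64 in H2BE and 1.77 in H2BE+BDNF. Against H2BE alone 3466 genes were called (25.8%), 1809 higher and 1657 lower, but against BDNF alone 3 were called (0.0223%), 2 higher (0.0149%) and 1 lower (0.00743%), with 1533 at an unadjusted p of 0.05 and 10 by DESeq2. The median 95% interval of that difference reached 0.248 log2 to either side. For 11452 genes (85.1%) the interval lay within 2-fold, and for 9339 (69.4%) within 1.5-fold. Differences of that size or smaller are not excluded for these genes, and the rest have wider intervals. The call count against BDNF is also unstable: it was 764 without BDNF replicate 1, 216 without a filter on low counts and 24 with all 10 libraries.

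**Figure D2:**
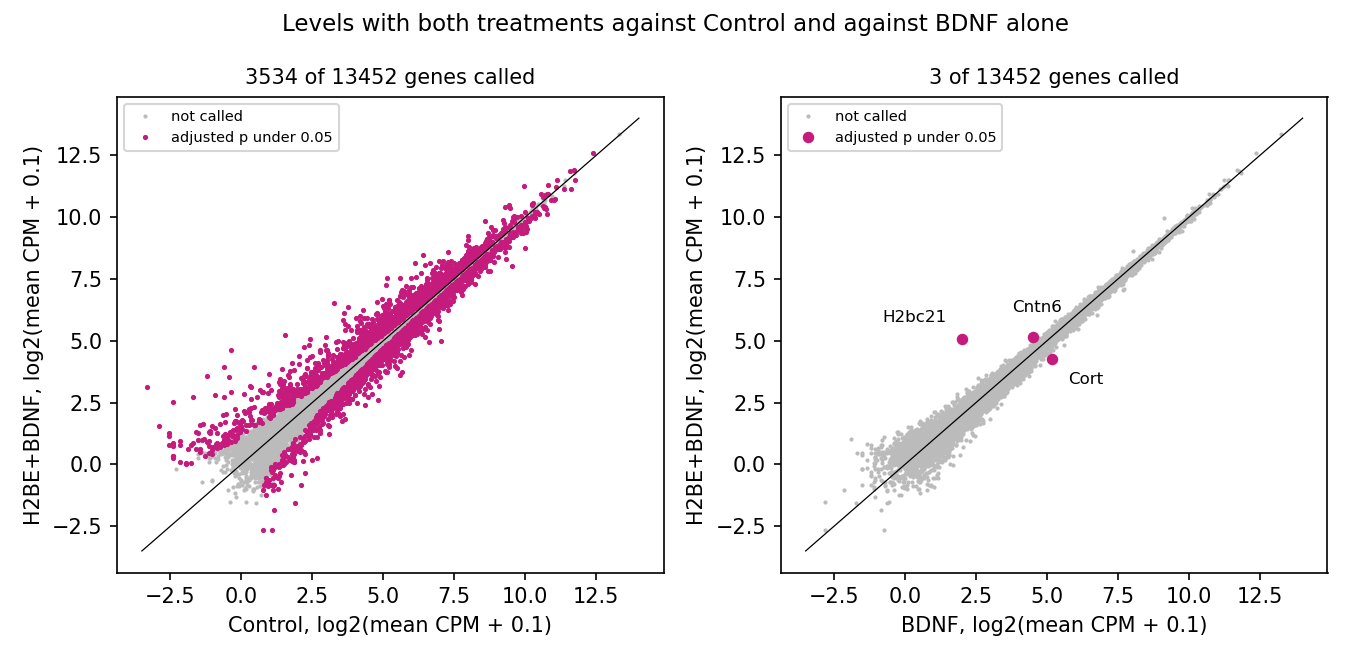
Mean level of each of 13452 genes in H2BE+BDNF (vertical) against Control (left) and against BDNF (right), as log2 of the mean CPM plus 0.1; the line marks equal levels and coloured points passed an adjusted p of 0.05. At left 3534 genes passed, at right only H2bc21, Cntn6 and Cort.

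The 3 genes called against BDNF alone followed 3 different patterns. H2bc21 was 8.61-fold higher (95% interval 6.86 to 10.8), with an adjusted p of 1.51e-08, and was at the level of H2BE alone. Cntn6, an adhesion protein of the contactin family at chr6:104492790-104863406, stood at 53.9 and 53.7 CPM in Control, 56.4 and 57 in H2BE, 22.8 and 21.9 in BDNF, and 33.6 and 36.9 in H2BE+BDNF. The combination lay between the single treatments with no overlap, 1.57-fold above BDNF (95% interval 1.37 to 1.81, adjusted p 0.0295) and 0.621-fold of H2BE (adjusted p 4.96e-05). Cntn6 was the 1 gene held between both treatments (0.00743%), and its difference from the BDNF level was lost in 9 of 21 alternatives.

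Cort, the gene of cortistatin, a peptide of cortical interneurons related to somatostatin, at chr4:149125034-149126763, followed another course. It stood at 20 and 18.2 CPM in Control, 14.4 and 16.1 in H2BE, 30 and 41.4 in BDNF, and 19.7 and 18 in H2BE+BDNF. Both BDNF libraries lay above all 6 others, and the combination overlapped Control. The level with both treatments was 0.529-fold that with BDNF (95% interval 0.427 to 0.655, adjusted p 0.0489 in edgeR), and the call was lost in 12 of 21 alternatives.

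The genes that came nearest to the rule were chosen after their values were seen, so that their values are a description. Below both treatments the nearest was Sst, the gene of somatostatin, an inhibitory peptide and interneuron marker. It stood at 656 and 606 CPM in Control, 498 and 483 in BDNF, 466 and 490 in H2BE, and 407 and 354 in H2BE+BDNF. Each single treatment was below Control with no overlap, and the combination was below both. The log2 fold change was -0.73 ± 0.06 against Control, -0.36 against BDNF (adjusted p 0.0689) and -0.33 against H2BE (adjusted p 0.00145). The sum of the single changes, -0.77, was close to that measured with both, and Sst met the rule in 8 of 23 alternatives. The 250 bases before its RefSeq start site, chr16:23890845-23891094 on the minus strand, are shown because they hold the CRE, the element of CREB (capitals), which was in 297 of the 10143 promoters of tested genes.
Sst: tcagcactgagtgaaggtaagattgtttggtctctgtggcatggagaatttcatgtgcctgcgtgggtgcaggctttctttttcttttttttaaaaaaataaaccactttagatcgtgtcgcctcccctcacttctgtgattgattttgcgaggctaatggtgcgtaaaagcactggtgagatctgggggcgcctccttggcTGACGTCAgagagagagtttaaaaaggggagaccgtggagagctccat

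The 12 genes nearest the rule from below included Sst, Slc32a1, Nxph1, Rab30, Mlc1, Nat8l, Slc6a11, Sox1, Erbb4, Irf2bp2 and Kcnc2, and no theme was tested among them. Slc32a1, the transporter that loads GABA into vesicles, stood at 182 and 178 CPM in Control, 157 and 179 in BDNF, 160 and 172 in H2BE, and 132 and 134 in H2BE+BDNF. Its log2 fold change was -0.44 ± 0.07 against Control and -0.33 against BDNF, with an adjusted p of 0.13 (edgeR).

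Slc6a11, a GABA transporter found mainly on astrocytes, was at 43.2 and 41.1 CPM in Control, 21 and 26.9 in BDNF, 44.6 and 37.1 in H2BE, and 15.8 and 15.4 with both. Nxph1, a neurexin ligand, was at 170 and 181, 130 and 159, 148 and 148, and 107 and 114 CPM. Erbb4, a neuregulin receptor, was at 190 and 195 CPM in Control and 144 and 130 with both, and the potassium channel gene Kcnc2 was at 68.6 and 71.1 and then 43.8 and 46.1. Mlc1, an astrocyte membrane protein, was at 11.4 and 10.7 CPM in Control and 4.55 and 4.9 with both, and Nat8l, which makes N-acetylaspartate, at 147 and 144 and then 112 and 108. All of them had both H2BE+BDNF libraries below the other 6, and none had an adjusted p under 0.05 against BDNF. Kcnc2 was not called against H2BE either (-0.33, adjusted p 0.0789 in edgeR). BDNF replicate 1 lay nearer the combination than BDNF replicate 2 did in Slc32a1, Slc6a11, Nxph1, Erbb4, Kcnc2 and Mlc1. In Nat8l BDNF replicate 2 lay nearer.

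The interneuron marker list holds Sst and Slc32a1 and is therefore no separate support for their pattern. Summed CPM of its 13 genes was 3150 to 3180 in Control, 3060 to 3250 in BDNF, 3060 to 3120 in H2BE, and 2740 in both H2BE+BDNF libraries. In 5 of the 13 (Dlx1, Gad1, Reln, Slc32a1 and Sst) the combination was below all 6 other libraries, and in 1, Npy, above them, where all genes give 6.95% and 6.18%. Sst, whose mean went from 631 to 381 CPM against Control, makes up much of the fall in the sum. Against Control 4 were lower and 1 higher, and against BDNF alone 0 were called, where 0.0223% of all genes were. The median log2 fold changes were -0.21 and -0.12. Gad1, which makes GABA, was at 769 and 759 CPM in Control and 677 and 683 with both (-0.17 ± 0.05), and Npy, a peptide of the same cells, rose by 0.36 ± 0.12. The excitatory markers summed to 1370 to 1390 CPM in Control and 1310 to 1360 with both, within which Slc17a6 rose while the cortical factors Cux2 (-1.07), Emx1 (-0.99) and Neurod6 (-0.58) fell.

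Among the gene lists, 15 of 79 cytosolic ribosomal protein genes had both H2BE+BDNF libraries above the other 6 and 0 had both below, where all genes give 6.18% and 6.95%. None of the 79 was called against BDNF, where 0.0223% of all genes were. Of the single genes nearest the rule from above, Grm8, an inhibitory metabotropic glutamate receptor of presynaptic terminals, stood at 25.2 and 26.4 CPM in Control, 36.3 and 36.6 in BDNF, 30.9 and 32.7 in H2BE, and 46.4 and 47.1 in H2BE+BDNF. The 4 groups formed 4 separate steps, and the log2 fold change of 0.87 against Control was close to 0.81, the sum of the single changes. Against BDNF the difference was 0.36 with an adjusted p of 0.164. Crh, the gene of corticotropin-releasing hormone, was at 12.1 and 8.91 CPM in Control, 24.7 and 18.8 in BDNF, 12.7 and 13.5 in H2BE, and 29.7 and 33 with both. Its adjusted p against BDNF was 0.209.

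Clvs2 was at 28.7 and 26.4, 56 and 50.5, 27.3 and 29.2, and 71.8 and 64.3 CPM in the same order of groups, and Parp8 at 50.6 and 52.3, 63.2 and 61, 47.4 and 50.4, and 75.4 and 77.5. In both of them H2BE alone left the level at that of Control, and the combination was above BDNF by 0.36 and 0.30 on the log2 scale. Adcy2, an adenylyl cyclase of neurons, was at 80.2 and 86.2 CPM with both and between 62.3 and 74.1 in the other 6 libraries. None of these genes had an adjusted p under 0.13 against BDNF in edgeR, and Adcy2 was not called against H2BE either (0.17, adjusted p 0.115). The Grm8 window, chr6:28135147-28135396 on the minus strand, holds an AP-1 match (capitals).
Grm8: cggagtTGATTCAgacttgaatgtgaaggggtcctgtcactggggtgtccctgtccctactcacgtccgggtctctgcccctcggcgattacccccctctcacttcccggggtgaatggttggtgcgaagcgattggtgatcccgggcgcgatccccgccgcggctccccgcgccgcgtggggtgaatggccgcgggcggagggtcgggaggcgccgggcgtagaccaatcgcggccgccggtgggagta

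**Figure D3:**
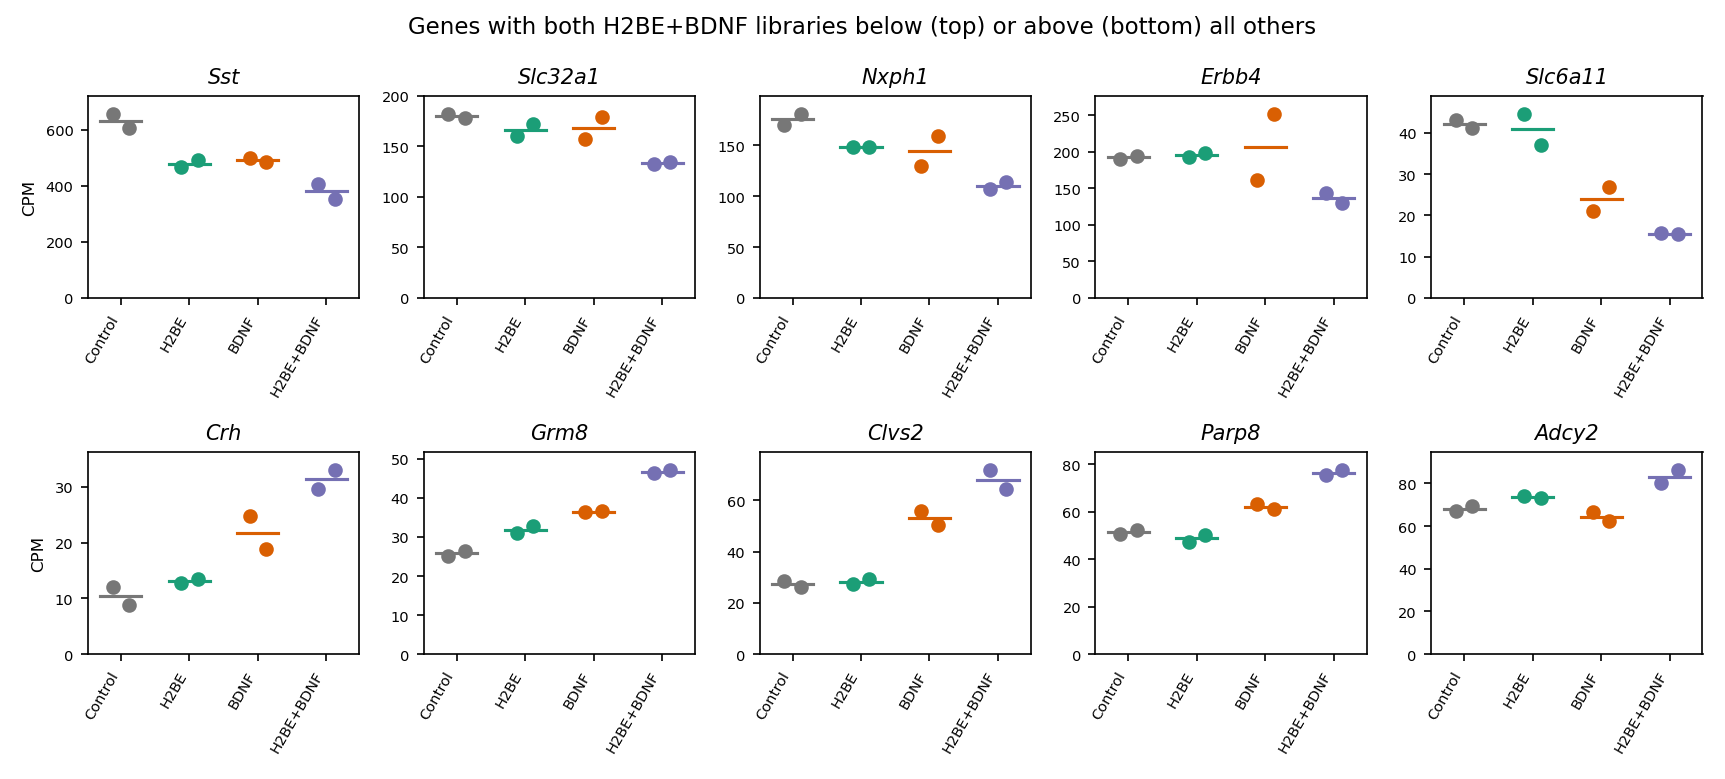
CPM of 10 genes chosen after their values were seen, with both H2BE+BDNF libraries below (top) or above (bottom) the other 6; each point is 1 library, each line the mean of 2, and the axes start at 0. Sst and Grm8 step away from Control with each treatment and furthest with both, while Slc32a1 and Adcy2 depart mainly with both.

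The effect of H2BE was compared between unstimulated and BDNF-treated neurons. The starting calls are unstable: the 287 genes became 2 without Control replicate 1, 7 without H2BE replicate 2, 27 with a correction for transcript length and GC, and 3 with the remainders of replicate 1 as libraries. Of the 179 genes called higher in H2BE against Control (1.33%), 50 (27.9%) had the same sign in H2BE+BDNF against BDNF, which uses other libraries, and the median log2 fold change went from 0.34 without BDNF to -0.06 on top of it. Of the 108 called lower (0.803%), 45 (41.7%) kept the sign, with medians of -0.33 and 0.02. Over all genes tested 48.8% had the same sign. The correlation of these 2 log2 fold changes across the 13452 genes, which are not independent replicates, was 0.094 (Pearson) and 0.013 (Spearman). H2bc21 was 1 of the genes that kept its change. These signs may be affected by the dependence between replicate differences given above, and that was not tested.

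The departure of the combination from the sum of both single log2 changes was called for 155 genes (1.15%), 44 above the sum and 111 below it. This is the same contrast as the difference between the BDNF responses with and without H2BE. The genes were chosen by this contrast in the same libraries, so that the medians and calls against Control given next are a description. Among the 111, medians were 0.39 for BDNF, 0.34 for H2BE and 0.27 for both, and among the 44 they were -0.19, -0.32 and -0.03. Of the 111, BDNF alone was called for 91, H2BE alone for 80 and the combination for 72, all against Control. The count is fragile: it was 4 with a correction for transcript length and GC, 0 were called when Control replicate 1 or H2BE replicate 2 was left out, and 1 when H2BE+BDNF replicate 3 was. The count was 180 with DESeq2, which gave no adjusted p for the 10 genes with the largest called departures, so that none of these is among the 180.

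Trpc5, a cation channel of neurites, showed the pattern most clearly among genes below the sum, at 2.25 and 3.67 CPM in Control, 8.15 and 12.2 in BDNF, 5.67 and 7.14 in H2BE, and 5.86 and 7.21 in H2BE+BDNF. Both single treatments were above Control, though H2BE alone was not called against it (1.22, adjusted p 0.0597 in edgeR). The combination overlapped H2BE alone, with a departure of -1.87 on the log2 scale. Slc7a11, the cystine-glutamate exchanger and an ATF4 target, was at 2.88 and 3.84, 9.44 and 10.9, 4.96 and 5.16, and 4.67 and 6.05 CPM in the same order. Its change with H2BE alone was not called against Control (0.66, adjusted p 0.212 in edgeR). Sv2c, a synaptic vesicle protein, was at 32.9 and 26.2, 27.9 and 40, 36.5 and 42.1, and 23.6 and 15.6 CPM, so that the combination was below all 6 others (-0.61 ± 0.19 against Control).

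Above the sum, Dpy30, a core subunit of the complexes that methylate H3K4, was at 40.1 and 40.7 CPM in Control, 33.3 and 31.1 in BDNF, 26.2 and 32.5 in H2BE, and 42.2 and 38.1 in H2BE+BDNF. The combination overlapped Control and both single treatments lay below it. Mief2, a mitochondrial fission adaptor, at 31.5 and 28.3, 22.2 and 19.4, 22.5 and 22.8, and 29.7 and 26.4 CPM, and Frg1, at 20.8 and 22.7, 15.7 and 13.9, 16.4 and 15.1, and 19.3 and 20.6 CPM, likewise had both single treatments below Control. Mief2 overlapped Control in the combination, and Frg1 lay just below it. With H2BE alone neither Mief2 nor Frg1 was called against Control (adjusted p 0.0865 and 0.0956 in edgeR). Of the ribosomal protein genes 6 of 79 and of the nuclear respiratory genes 6 of 80 were called above the sum, and 0 of either below it, where 0.327% of all genes were above and 0.825% below. With the correction for transcript length and GC, 4 genes of all those tested were called, so that most of these list members lost the call.

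**Figure D4:**
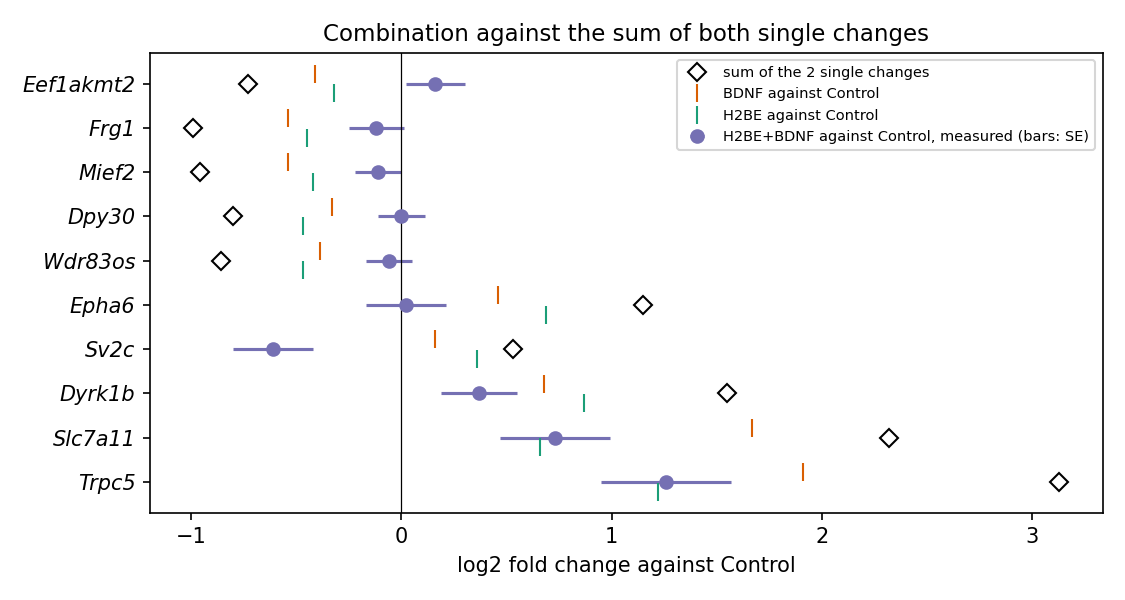
Log2 fold change against Control of 10 genes whose combination departed most from the sum of the single changes; filled points give H2BE+BDNF with its SE, diamonds the sum, and ticks BDNF and H2BE alone. In the 5 upper genes the diamonds lie to the left of the points, and in the 5 lower genes to the right.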

How the data were processed

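PolyA RNA libraries were made with the NEBNext Ultra II kit, per the labels' protocols. The authors deposited raw counts per Ensembl gene and a table of signal values, which are these counts divided by 1 factor per library. The submitters' processing notes name mm10, SAMtools, DESeq2 and deepTools; aligner, counter and strand setting are not stated there. The deposited counts were tested, and the normalized table gave symbols only (12822 genes, with 587 from the reference and 43 without). filterByExpr (minimum count 10, total 15) kept 13452 of 48526 genes, with 99.78% of counts. A quasi-likelihood model with TMM scaling and 1 mean per group (edgeR 4.0.16, R 4.3.3) was fitted to 8 libraries, and p-values were adjusted over all genes. 1 count is 0.0707 to 0.198 CPM. Scripts were tested on simulated data.

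Named are the 10 largest called changes per direction with a mean of at least 5 CPM, a settled symbol and no overlap, 5 per direction for the difference of responses, H2bc21, and up to 4 genes per list by p. Members, the 26 lists and these rules were chosen with earlier results of these data known. Some genes that these rules name are not reported here. Alternatives covered DESeq2, RLE factors, filters, library sets, thinning, length and GC, replicate blocks and leaving out libraries. DESeq2 was version 1.42.0.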

Additional observations from a re-analysis of the deposited data

Results flagged for a closer look

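The difference between the BDNF response with H2BE and the response without it was tested directly, and 10 genes with the largest called differences are given here on the log2 scale (edgeR). It was above 0 for Eef1akmt2 (0.89, adjusted p 0.0458), Frg1 (0.87, 0.0431), Mief2 (0.85, 0.0343), Wdr83os (0.80, 0.0397) and Dpy30 (0.80, 0.0339). It was below 0 for Trpc5 (-1.87, 0.0431), Slc7a11 (-1.59, 0.0431), Dyrk1b (-1.18, 0.0363), Sv2c (-1.14, 0.0452) and Epha6 (-1.13, 0.0444). Each of the 10 lost the call under at least 1 alternative and none changed sign. DESeq2 gave no adjusted p for any of the 10 in this contrast. Wdr83os overlaps Wdr83 on the other strand and Eef1akmt2 overlaps Fgfr2.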

How the results depend on the processing

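Counts are given in the order H2BE+BDNF against BDNF (higher and lower), beyond both treatments (above and below), held between, and difference of responses, where each moved by more than 1.5 times. DESeq2 gave 10 (5 and 5), 1 (0 and 1) and 3, with 2264 against Control (996 lower) and 2672 for BDNF against Control. No filter on low counts gave 216 (55 and 161), 41 (4 and 37), 45 and 440. All 10 libraries gave 24 (9 and 15), 5 (2 and 3), 9 and 1169, with 6465 for BDNF and 1611 for H2BE against Control. Thinning gave 11 (5 and 6), 1 (0 and 1) and 3. Length and GC correction gave 1 beyond (1 below) and 4 for the difference, with 27 for H2BE. Replicates 2 and 3 alone gave 1 (1 and 0), 0 between and 349, only the groups compared 1 (1 and 0) and 0 between, and a minimum of 1 CPM in 4 libraries 0 lower than BDNF. The third replicates and the remainders of the first as separate libraries, added after seeing the data, gave 1 (1 and 0), 0 between and 0. H2BE against Control was 559 without a filter, 1146 with only its groups and 3 with the remainders. The cause of these shifts was not tested.

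The 6 correlations of same-numbered deviations between groups were all negative, from -0.309 to -0.183. Added over the 4 groups, the replicate differences varied less than counting alone, at 0.46 times. Replicate number thus marks a dependence between groups in these counts, and whether a block on it suits them was not tested. A replicate block gave 119 (34 and 85), 26 (4 and 22), 33 and 245, with 2247 against Control (1198 and 1049) and 140 for H2BE. The block with replicates 2 and 3 alone gave 48 (8 and 40), 12 (2 and 10), 12 and 344. The block with length and GC correction gave 94 (30 and 64), 15 (1 and 14), 31 and 13, with 2206 against Control (973 lower) and 21 for H2BE.

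Leaving out 1 library at a time, H2BE+BDNF against Control ranged from 1939 to 4307 (1017 to 2207 higher, 922 to 2117 lower), against BDNF from 1 to 764 (1 to 232 and 0 to 532) and against H2BE from 1818 to 4157. Genes beyond both ranged from 0 to 154 (0 to 46 above, 0 to 108 below), genes held between from 0 to 205, the difference of responses from 0 to 897, BDNF against Control from 2278 to 4499 and H2BE against Control from 2 to 890. The highest values against BDNF, beyond both, between and for the difference were all without BDNF replicate 1. Of 118 named genes, 91 kept their status against Control, called or not called, under every alternative. None changed sign where either fit called it. The uncalled genes Vtn, Pdgfrb, Ifit2 and Irf9 changed sign under some alternatives. Length trends differed between groups, at -0.0597 and -0.0359 log2 per doubling of length in Control and -0.00198 and -0.00806 in H2BE+BDNF. With the single treatments the trends were 0.0184 and 0.0456 in BDNF and 0.0217 and 0.02 in H2BE.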
